A study of Mus musculus with 12 samples.

Results

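The cytochrome P450 genes are the rows of the liver mRNA table whose symbol has the form Cyp, a family number, a subfamily letter and a gene number. *Cyp7a1*, *Cyp7b1*, *Cyp8b1* and *Cyp27a1*, which are among the genes of bile acid synthesis, were left out. This gave 76 genes of 20069 in the table: 3 of family Cyp1, 42 of Cyp2, 7 of Cyp3, 15 of Cyp4 and 9 of the other families. The mRNA came from the livers of C57BL/6 mice, all male and wild-type, 3 to 6 months old and kept in 12 hr of light and 12 hr of darkness for at least 2 weeks. Livers were taken every 4 hr from ZT2 to ZT22 (ZT0 being the time of lights on), 6 times in all, in 2 independent series, so that n = 2 samples at each time and 12 in all. Samples of different times are different animals, but whether a sample holds 1 liver or a pool is not given in the sources used here, so the p-values measure the spread between these samples.

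P450 enzymes are heme proteins of the endoplasmic reticulum and of mitochondria that use oxygen to hydroxylate or epoxidize fats, steroids, vitamins, drugs and toxins. Most microsomal members take their electrons from 1 shared reductase, encoded by *Por*. In the liver, families 1 to 3 are best known for the oxidation of foreign compounds, and family 4 for the hydroxylation of fatty acids. Their genes answer to ligand-activated receptors (AhR, CAR, PXR, PPARα), to growth hormone, which sets sex differences, and to factors driven by the circadian clock. Many of them lie in clusters of near copies.

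Some of the near copies can be told apart by only a few bases, which limits what the deposited signal can resolve, since the authors counted a sequence only where it mapped to a single place. *Cyp2a5* (the coumarin hydroxylase; mm9, chr7:27620324-27628567, + strand) and *Cyp2a4* (a steroid hydroxylase; chr7:27092209-27100107, + strand) differ at 23 of 1485 coding bases. *Cyp4a10* (chr4:115190869-115206254, + strand) and *Cyp4a31* (chr4:115236254-115251618, + strand), both fatty acid hydroxylases, differ at 52 of 1530. *Cyp2c37* (chr19:40066909-40086738, + strand) and *Cyp2c54* (chr19:40112431-40148301, − strand) differ at 72 of 1473. The 60-base stretches that follow come from the same coding positions (bases 596 to 655, 106 to 165 and 791 to 850). They are shown because these genes carry much of what follows, and the capitals mark the bases that differ within each pair.
Cyp2a5: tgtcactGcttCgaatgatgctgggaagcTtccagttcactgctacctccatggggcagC
Cyp2a4: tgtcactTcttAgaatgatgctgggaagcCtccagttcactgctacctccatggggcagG
Cyp4a10: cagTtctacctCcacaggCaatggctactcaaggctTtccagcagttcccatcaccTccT
Cyp4a31: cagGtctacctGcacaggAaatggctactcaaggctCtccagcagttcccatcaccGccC
Cyp2c37: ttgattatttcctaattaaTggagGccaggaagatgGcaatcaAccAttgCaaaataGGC
Cyp2c54: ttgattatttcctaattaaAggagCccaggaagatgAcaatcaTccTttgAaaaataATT

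Of all stretches as long as 1 sequence, 9.30% of those in the *Cyp2a5* transcript, and slightly more in *Cyp2a4*, also occur in another gene's transcript. The share was 90.6% for *Cyp3a41a*, 43.7% for *Cyp2c40*, 36.0% for *Cyp4a12b* and 35.6% for *Cyp4a12a*, so the levels of these genes are uncertain. Counting took no account of strand, and the expressed genes *Cyp2u1*, *Cyp2f2*, *Cyp2c55* and *Cyp4a12b* overlap a gene of the opposite strand (*4930534D22Rik*, *Gm15883*, *AC100729.1* and *Gm12837*), whose sequences cannot be told apart from theirs where they overlap. The same holds for several partners and regulators described further on, among them *Por* (*Gm16061*) and *Nr1i3* (*Tomm40l*).

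The defining markers of liver were present, and the 5 measured hepatocyte markers summed to between 84044 and 155974 reads per base pair (rpbp) in each sample. The summed markers of Kupffer cells (337 to 660 rpbp), endothelium (166 to 200 rpbp), stellate cells (187 to 245 rpbp) and bile duct cells (63.7 to 229 rpbp) were far lower, and no marker was at 0 in every sample. Of the 12 samples, 3 stood apart by acute phase genes, which the liver makes in inflammation. *Saa1*, serum amyloid A, was at 14312 and 12917 rpbp in the samples of ZT2 and at 5249 rpbp in the series 2 sample of ZT22, against 57.8 to 233 rpbp in the 9 other samples. *Lcn2* was at 540, 431 and 244 rpbp in the same 3 samples and at 5.28 to 37.6 rpbp in the others, and *Hp*, haptoglobin, at 19262, 17336 and 12527 rpbp against 3574 to 5591 rpbp. Of the 10 acute phase genes measured, *Steap4* alone was not above the 9 others in the ZT22 sample, at 194 rpbp against 118 to 250 rpbp, and *Saa3* was only slightly so, at 21.7 against at most 16.8 rpbp. Both samples of ZT2 are among them, so the time of day and the acute phase state cannot be told apart at ZT2. The part of this state in the P450 results was not tested, and the calls are given with and without these samples. In whole liver, fewer cells of a type and less RNA per cell cannot be told apart either.

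The P450 genes made up between 1.76% (ZT2, series 1) and 3.20% (ZT14, series 2) of the summed signal of all genes. Of the 76 genes, 51 were expressed, meaning at least 1 value above 8 rpbp, as were 10198 of the 20069 genes. The Cyp2 family held 75.4% of the signal of the P450 genes, Cyp3 14.6%, Cyp4 7.29%, Cyp1 2.54% and the remaining families 0.25%. Rpbp is a coverage per base, so levels can be compared between genes, but less closely where near copies share stretches. Of the stretches in the transcript, 9.99% were shared for *Cyp2d9* and 9.30% for *Cyp2a5*, against 0% for *Cyp2e1*.

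*Cyp2e1*, which oxidizes ethanol and acetone, had the highest mean level, at 11147 ± 2595 rpbp (SD, n = 12 samples). It was followed by *Cyp3a11*, the main drug-oxidizing enzyme of its subfamily, at 3994 ± 856 rpbp, *Cyp2c29* at 3395 ± 851 rpbp and *Cyp2d9*, a male-predominant steroid hydroxylase, at 2192 ± 458 rpbp. The next were *Cyp2f2*, an enzyme of the portal zone, at 1485 ± 254 rpbp, *Cyp2a5* at 1407 ± 1246 rpbp, *Cyp2d26* at 1318 ± 214 rpbp and *Cyp3a25* at 1295 ± 428 rpbp. *Cyp2c50* at 976 ± 266 rpbp and *Cyp2a12* at 964 ± 186 rpbp closed the first 10. *Cyp3a11* and *Cyp2c29* differed by less than the SD of either over the day, as did each neighbouring pair from *Cyp2f2* on except *Cyp3a25* and *Cyp2c50*, whose difference was less than the SD of *Cyp3a25* only. *Cyp2e1* lay above every other P450 gene in each of the 12 samples.

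**Figure D1:**
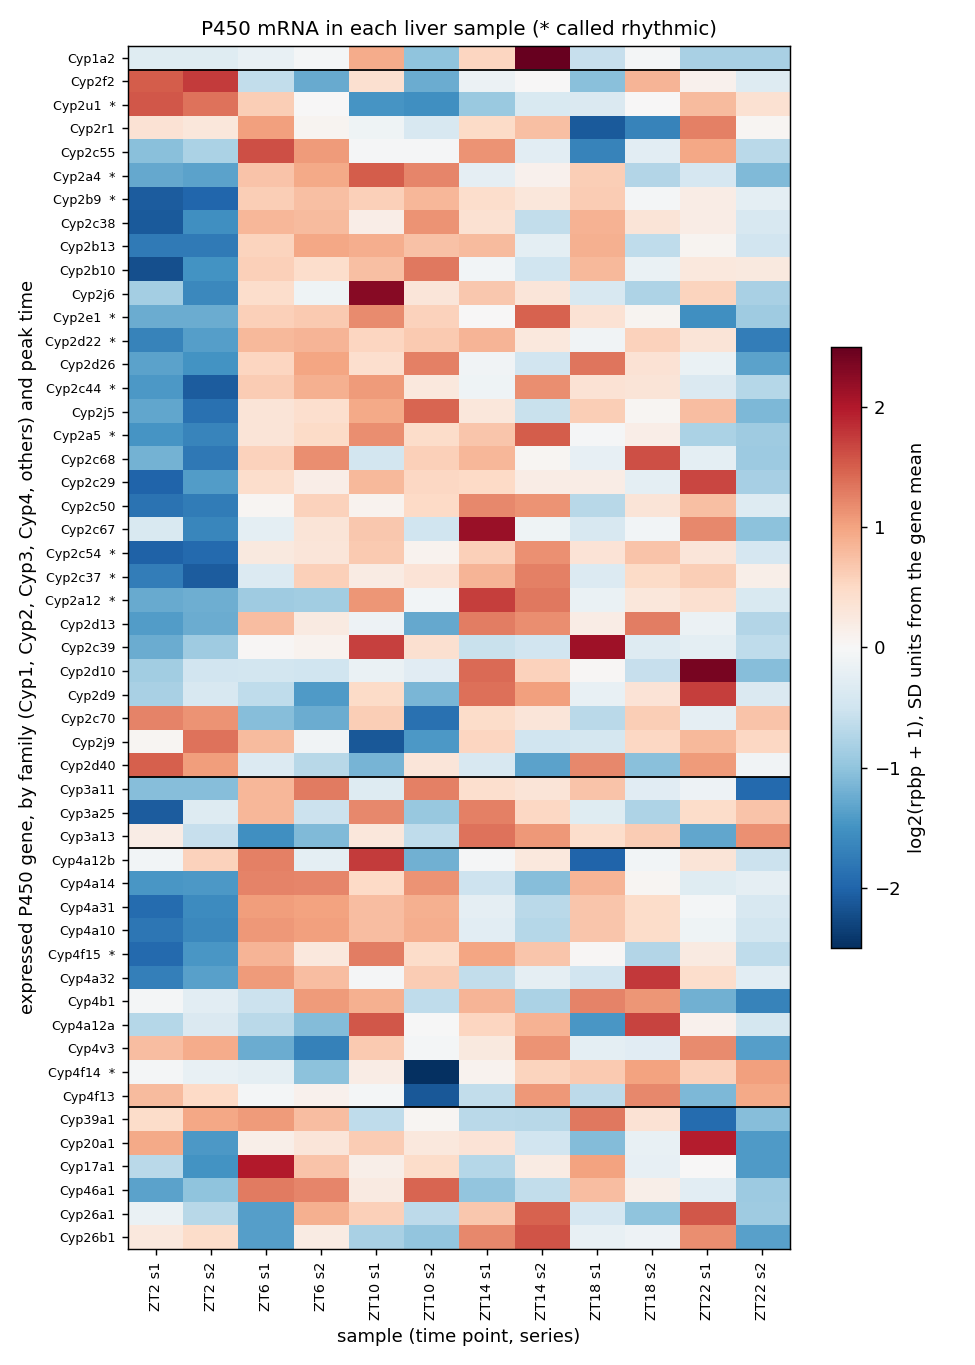
Level of the 51 expressed P450 genes (rows, by family and then by peak time) in the 12 liver samples (columns; s1 and s2 are the series), as log2(rpbp + 1) in SD units from the mean of the gene. Most rows of Cyp2 and of the Cyp4a genes are blue in both samples of ZT2, and an asterisk marks the 12 genes called rhythmic.

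To ask which P450 mRNAs cycle over the day, the 24 hr component of the 12 values of each gene was measured. F24 is its share of the variance (0 to 1), and a gene was called rhythmic when F24 was above 0.45, the permutation p below 0.05 and the highest over the lowest value above 1.5. By these limits 12 of the 51 expressed P450 genes were rhythmic, against 19.1% of all expressed genes, and 5 were strongly rhythmic (F24 above 0.6 and a higher minimum of amplitude), against 7.89%. An unadjusted permutation p below 0.05 was found for 13 of the 51, against 26.6% of all expressed genes. The rhythmic genes were *Cyp2a4*, *Cyp2a5*, *Cyp2a12*, *Cyp2b9*, *Cyp2c37*, *Cyp2c44*, *Cyp2c54*, *Cyp2d22*, *Cyp2e1*, *Cyp2u1*, *Cyp4f14* and *Cyp4f15*. None of the 3 expressed Cyp3 genes, of the 6 of the other families or the expressed Cyp1 gene was called. After adjustment over all 10198 genes (Benjamini-Hochberg), the permutation p stayed below 0.05 for 3 P450 genes, *Cyp2u1*, *Cyp2a5* and *Cyp2c54* (5.82% of all genes). With limma on log2(rpbp + 1), 5 P450 genes had an adjusted p below 0.05 (8.61% of all genes). Of the 12 peaks, 10 fell between 9 and 15 hr, around dusk, where 31.4% of the 1948 rhythmic genes had theirs. Without ZT2 the fitted peaks of *Cyp2b9* (8.13 hr) and *Cyp2a4* (8.59 hr) lay before this window. Without the 3 acute phase samples those of *Cyp2b9* (7.41 hr), *Cyp2a4* (8.59 hr) and *Cyp2d22* (6.88 hr) did. The other peaks of the 10 stayed within it in both cases.

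*Cyp2u1*, a fatty acid hydroxylase (chr3:130993409-131006145, − strand), had the highest F24 of the P450 genes, 0.805, and its peak at 0.90 hr lay opposite to that of most others. Its levels were 46.0 and 42.2 rpbp at ZT2, 30.7 and 23.6 rpbp at ZT6, 12.3 and 12.0 rpbp at ZT10, 15.6 and 19.9 rpbp at ZT14, 20.04 and 23.6 rpbp at ZT18, and 33.1 and 27.9 rpbp at ZT22. Both samples of ZT2 lay above, and both of ZT10 below, the 10 other samples. The permutation p was 0.0002 (adjusted p = 0.0129), and the peak was 1.48 ± 0.22 (SE) above the trough on the log2 scale by limma. Without ZT2 its F24 was 0.763 (permutation p = 0.0094).

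*Cyp2a5* (the first sequence of those above) peaked at 12.1 hr with F24 = 0.679, a permutation p of 0.0006 and an adjusted p of 0.0231. It was at 209 and 176 rpbp at ZT2, 1306 and 1536 rpbp at ZT6, 3070 and 1484 rpbp at ZT10, 1893 and 4365 rpbp at ZT14, 919 and 1119 rpbp at ZT18, and 423 and 378 rpbp at ZT22. All 4 samples of ZT2 and ZT22 lay below the 8 others, although the samples within ZT10 and within ZT14 differed by more than 1 log2 unit. The fitted peak lay 3.65 ± 0.46 (SE) above the trough on the log2 scale, and 2.89 ± 0.44 without ZT2, where F24 was 0.595 (permutation p = 0.0242). Without the 3 acute phase samples it was not called (F24 = 0.536, permutation p = 0.0806). Its near copy *Cyp2a4*, which is female-predominant in mouse liver, had a mean of 12.6 rpbp and peaked at 9.53 hr (F24 = 0.579, permutation p = 0.01, adjusted p = 0.0865). *Cyp2a4* was at 0.08 and 0 rpbp at ZT2, 16.2 and 22.8 rpbp at ZT6, 50.8 and 33.8 rpbp at ZT10, 3.64 and 6.32 rpbp at ZT14, 13.8 and 1.32 rpbp at ZT18, and 2.52 and 0.36 rpbp at ZT22. Both samples of ZT10 were above all others, and about 54 sequences lie behind its mean.

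*Cyp2e1* (chr7:147949638-147960874, + strand) cycled with a lower amplitude and a peak at 11.5 hr (F24 = 0.749, permutation p = 0.0032, adjusted p = 0.0516). Its levels were 8075 and 8042 rpbp at ZT2, 12548 and 12696 rpbp at ZT6, 14462 and 12468 rpbp at ZT10, 10885 and 15454 rpbp at ZT14, 11822 and 11016 rpbp at ZT18, and 7506 and 8788 rpbp at ZT22. The 4 samples of ZT2 and ZT22 were the 4 lowest. The peak was 0.82 ± 0.15 (SE) above the trough on the log2 scale. *Cyp2e1* was rhythmic also without ZT2 (F24 = 0.676, permutation p = 0.0136) and without the 3 acute phase samples (F24 = 0.598, permutation p = 0.0476).

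*Cyp2a12*, another steroid hydroxylase (chr7:27814109-27821826, + strand), had F24 = 0.718 and a peak at 14.3 hr (permutation p = 0.0041, adjusted p = 0.0578). It was at 748 and 755 rpbp at ZT2, 803 and 807 rpbp at ZT6, 1169 and 936 rpbp at ZT10, 1310 and 1217 rpbp at ZT14, 918 and 1002 rpbp at ZT18, and 1024 and 883 rpbp at ZT22. Both samples of ZT14 lay above all others and both of ZT2 below. Its amplitude, 1.751, was just past the limit for a strong rhythm, which *Cyp4f14* missed at 1.7498 and *Cyp4f15* at 1.743.

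The neighbouring genes *Cyp2c37* and *Cyp2c54*, which oxidize polyunsaturated fatty acids and are targets of CAR, peaked at 14.1 and 13.8 hr. *Cyp2c54* was at 186 and 191 rpbp at ZT2, 519 and 533 rpbp at ZT6, 626 and 482 rpbp at ZT10, 605 and 780 rpbp at ZT14, 540 and 639 rpbp at ZT18, and 531 and 382 rpbp at ZT22. Both ZT2 samples were below all the others. With all samples F24 was 0.678 (permutation p = 0.0016, adjusted p = 0.0363), and without ZT2 the permutation p was 0.0922. *Cyp2c37* was at 210 and 177 rpbp at ZT2 and at 400 to 848 rpbp in the 10 other samples, of which the 2 of ZT14 were highest. Its F24 was 0.509 with all samples (permutation p = 0.0386, adjusted p = 0.167) and 0.210 without ZT2 (permutation p = 0.448). *Cyp2c50*, of the same subfamily, had similar values, 534 and 552 rpbp at ZT2 and 1349 and 1323 rpbp at ZT14, but narrowly missed the call (F24 = 0.474, permutation p = 0.0596).

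*Cyp2c44*, an arachidonic acid epoxygenase, and *Cyp2d22* peaked at 11.8 and 11.6 hr. *Cyp2c44* was at 222 and 182 rpbp at ZT2 and between 276 and 493 rpbp in the 10 other samples (F24 = 0.565, permutation p = 0.028). *Cyp2d22* was at 177 and 189 rpbp at ZT2 and at 175 rpbp in series 2 of ZT22, the 3 acute phase samples, and between 251 and 308 rpbp in the 9 others (F24 = 0.518, permutation p = 0.0416). The adjusted permutation p of these genes was 0.143 and 0.173. *Cyp2b9*, which is female-predominant in mouse liver, was at 0.48 and 0.84 rpbp at ZT2, 410 and 530 rpbp at ZT6, 392 and 627 rpbp at ZT10, 278 and 199 rpbp at ZT14, 417 and 100.7 rpbp at ZT18, and 167 and 67.1 rpbp at ZT22. It was near 0 only at ZT2 and was called with a permutation p of 0.0437 (F24 = 0.528, adjusted p = 0.176).

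In family 4, *Cyp4f14*, a hydroxylase of leukotrienes (chr17:33042016-33054023, − strand), was the only rhythmic P450 gene with a peak late in the night, at 19.6 hr (F24 = 0.605, permutation p = 0.0054, adjusted p = 0.065). It was at 274 and 268 rpbp at ZT2, 265 and 236 rpbp at ZT6, 284 and 185 rpbp at ZT10, 280 and 301 rpbp at ZT14, 305 and 322 rpbp at ZT18, and 301 and 323 rpbp at ZT22. The lowest value, in series 2 of ZT10, sets much of its amplitude, and the fitted peak was 0.45 ± 0.13 (SE) above the trough on the log2 scale. *Cyp4f15* peaked at 11.6 hr (F24 = 0.621, permutation p = 0.014, adjusted p = 0.1), with 99.5 and 108 rpbp at ZT2 and 122 to 173 rpbp elsewhere.

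**Figure D2:**
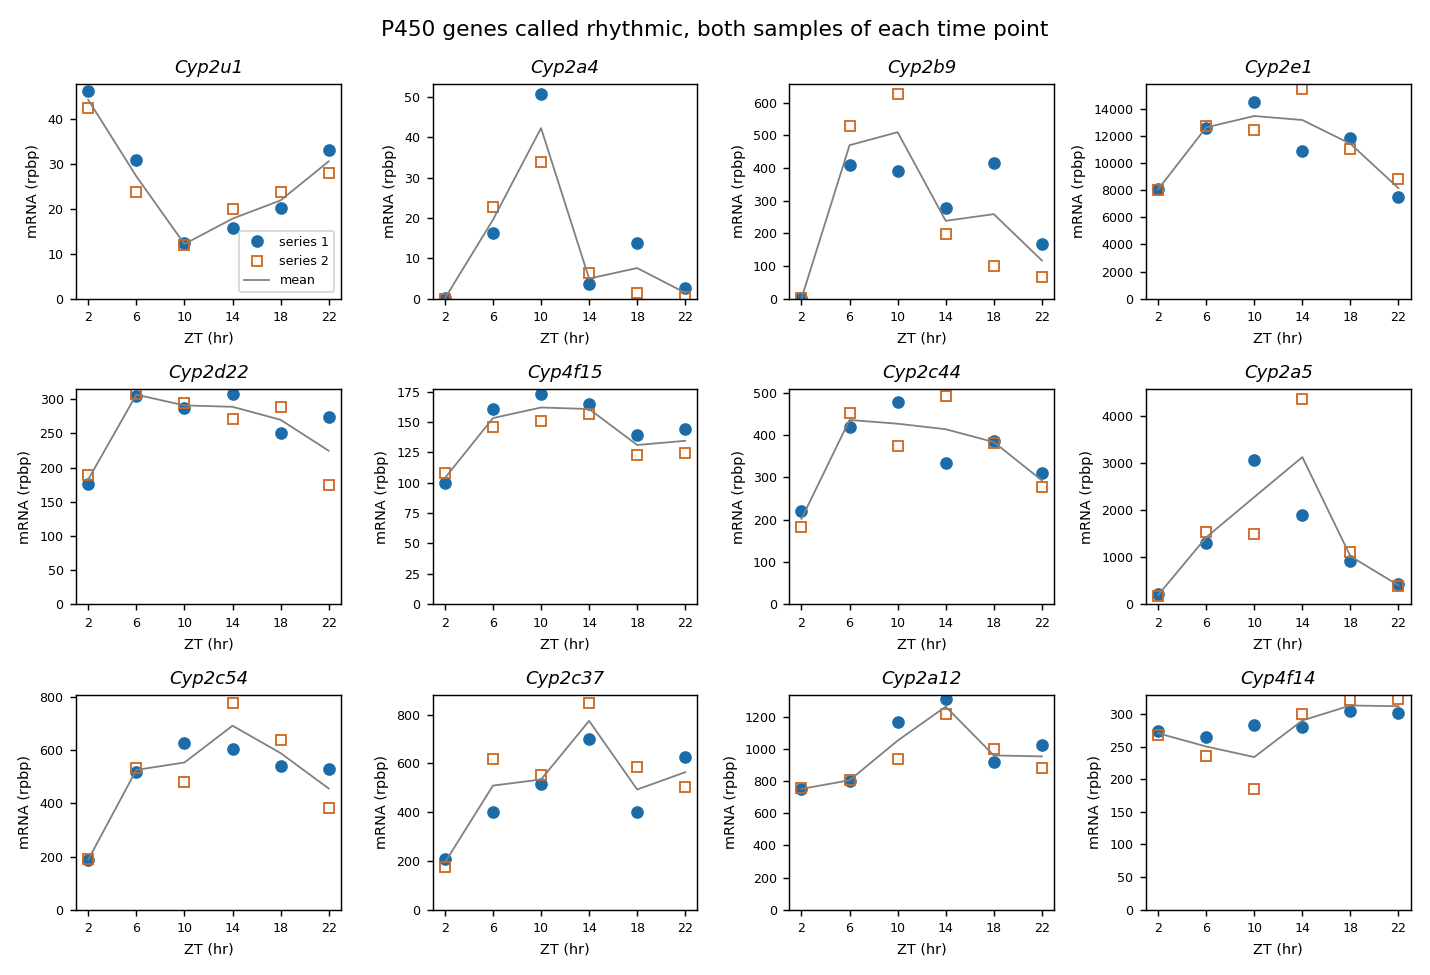
Level (rpbp, from 0) of the 12 rhythmic P450 genes against ZT, ordered by peak time, with series 1 as circles, series 2 as squares and a line through the means of the 2 samples. *Cyp2u1* is highest at ZT2, *Cyp4f14* late in the night, and the 10 others between ZT6 and ZT14.

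The samples of ZT2 were the lowest of the day for many P450 genes. In 23 of the 51 expressed genes both ZT2 samples lay below all 10 others, as in 9.58% of all expressed genes, and in 3 (*Cyp2u1*, *Cyp2f2* and *Cyp2c70*) they lay above all others, as in 10.4%. Markers of cell types moved with these samples. The summed hepatocyte markers were at 84044 and 86868 rpbp at ZT2 and 122942 to 155974 rpbp in the 10 other samples, a sum carried by *Alb* at 50445 and 53126 rpbp against 93174 to 122523 rpbp. Single hepatocyte markers went in both directions, with *Alb* and *Ttr* lowest and *Apoa1*, *Apob* and *Serpina1a* highest in both samples of ZT2. The summed Kupffer cell markers were at 660 and 654 rpbp at ZT2 and 337 to 514 rpbp elsewhere, all 5 of them highest in the samples of ZT2, and their part in the P450 levels was not tested. The median difference between the ZT2 samples and the rest was −0.42 (log2) over the 51 P450 genes and 0.04 over all expressed genes. Both samples of ZT14 were above all others in 4 genes (*Cyp2a12*, *Cyp2c37*, *Cyp2c50* and *Cyp26b1*; 3.53% of all genes) and below in none (3.0%). The counts above and below were 3 and 0 at ZT6 (5.68% and 3.49%), 2 and 2 at ZT10 (2.68% and 4.18%), 1 and 1 at ZT18 (1.26% and 3.13%), and 0 and 2 at ZT22 (2.15% and 1.54%). The difference at ZT2 was widest for *Cyp2b9* (−7.30), *Cyp4a14* (−5.84), *Cyp4a31* (−5.21) and *Cyp4a10* (−4.69). The series 2 sample of ZT22, which shared the acute phase genes, was below its counterpart of series 1 in 42 of the 51 P450 genes, and in 52.9% of all genes. This included 22 of the 23 genes that were lowest at ZT2, but the like share over all genes lowest at ZT2 was not computed. The median difference of series 2 from series 1 at ZT22 was −0.31 (log2) over the P450 genes and −0.02 over all genes. In 18 of the 51 genes the series 2 sample of ZT22 was also below each of the 9 samples with low levels of the acute phase genes, as in 13.3% of all genes.

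The fatty acid hydroxylases of the Cyp4a cluster on chromosome 4, known targets of PPARα, differed in how far they ranged. Of its genes, *Cyp4a14*, *Cyp4a10* and *Cyp4a31* ranged widely, *Cyp4a12b* between 23.0 and 133 rpbp, and *Cyp4a12a* and *Cyp4a32* less. *Cyp4a14* (chr4:115158805-115168747, − strand) was at 1.64 and 1.72 rpbp at ZT2, 1430 and 1322 rpbp at ZT6, 249 and 1058 rpbp at ZT10, 22.4 and 5.60 rpbp at ZT14, 577 and 87.6 rpbp at ZT18, and 37.9 and 45.6 rpbp at ZT22. *Cyp4a10* was at 9.08 and 12.8 rpbp at ZT2, 996 and 902 rpbp at ZT6, 610 and 759 rpbp at ZT10, 115 and 55.2 rpbp at ZT14, 535 and 369 rpbp at ZT18, and 150 and 83.6 rpbp at ZT22. *Cyp4a31* followed *Cyp4a10* closely, from 4.40 and 9.08 rpbp at ZT2 to 897 and 834 rpbp at ZT6. In all 3 genes both samples of ZT6 were the highest of the 12, and both of ZT2 the lowest. The levels at ZT18 were above those at ZT14 in both series, although *Cyp4a14* in series 2 reached only 87.6 rpbp. With all samples none was called, at permutation p between 0.0975 and 0.111. Without ZT2, *Cyp4a14* (F24 = 0.635, permutation p = 0.0393) and *Cyp4a31* (F24 = 0.619, permutation p = 0.0499) were called, while *Cyp4a10* (F24 = 0.614, permutation p = 0.0514) lay just outside. Without the 3 acute phase samples none of these genes was called, at F24 of 0.644 to 0.654 and permutation p of 0.0563 to 0.0603. *Ppara* itself was at 74.8 and 72.6 rpbp at ZT2 and 201 and 229 rpbp at ZT6. It was at 159 and 204 rpbp at ZT10 and 133 and 126 rpbp at ZT14. At ZT18 it was at 151 and 140 rpbp and at ZT22 at 118 and 105 rpbp. *Ppara* was not called rhythmic with all samples. The male-predominant *Cyp4a12a* was at 249 to 646 rpbp and did not follow the order of *Cyp4a10*, and *Cyp4a32* was at 18.2 to 50.8 rpbp.

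CAR and PXR are receptors for drugs and bile acids, and of the 9 expressed genes in the list of their targets, 5 had both ZT2 samples lowest (*Cyp2b10*, *Cyp2c29*, *Cyp2c37*, *Cyp2c50* and *Cyp2c54*), against 23 of all 51 P450 genes and 9.58% of all expressed genes. *Cyp2b10*, the classical CAR target, was at 1.84 and 4.80 rpbp at ZT2 and at 14.8 to 96.1 rpbp in the 10 other samples. *Cyp2c29* was at 1930 and 2274 rpbp against 2635 to 5140 rpbp. *Cyp2c38*, of the same subfamily but not on the list, was at 1.00 and 2.92 rpbp against 10.8 to 92.4 rpbp. *Cyp3a11* was at 3073 and 3071 rpbp at ZT2, but its lowest value, 2521 rpbp, was that of series 2 at ZT22. The gene of CAR, *Nr1i3*, was at 55.0 and 54.8 rpbp at ZT2, 122 and 136 rpbp at ZT22 and 205 to 252 rpbp in the 8 other samples. On this list 2 of 9 genes, *Cyp2c37* and *Cyp2c54*, were rhythmic, against 19.1% of all expressed genes, 0 of 9 without ZT2 (15.1%) and 1 of 9, *Cyp3a13*, without the 3 acute phase samples (12.6%). In the opposite direction, *Cyp2c70*, the enzyme that makes muricholic acids in the mouse, was at 1537 and 1451 rpbp at ZT2 and at 308 to 1178 rpbp elsewhere. *Cyp2f2* was at 1885 and 1959 rpbp at ZT2 and at 1188 to 1689 rpbp elsewhere.

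**Figure D3:**
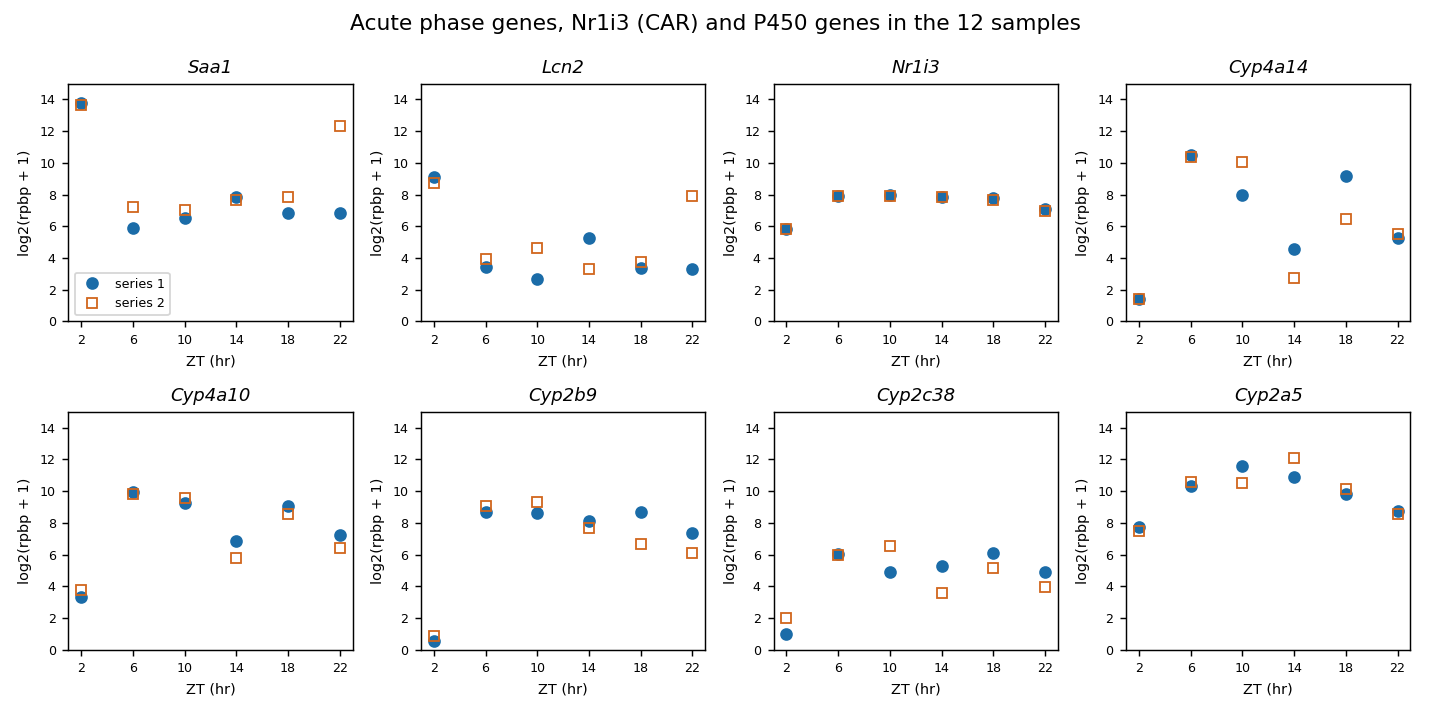
Level as log2(rpbp + 1) of 2 acute phase genes, *Nr1i3* and 5 P450 genes against ZT in the 12 samples (series 1 circles, series 2 squares). *Saa1* and *Lcn2* are high in both samples of ZT2 and in series 2 of ZT22, and all 5 P450 genes have their lowest values at ZT2.

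The rhythm calls were repeated without these samples. Without ZT2 (10 samples), 8 P450 genes were rhythmic, against 15.1% of all expressed genes. Of the 12 genes called with all samples 6 kept the call (*Cyp2a4*, *Cyp2a5*, *Cyp2a12*, *Cyp2e1*, *Cyp2u1* and *Cyp4f14*), as did 63.3% of the 1948 rhythmic genes, and *Cyp4a14* and *Cyp4a31* were called in addition. *Cyp4f15* kept its F24 (0.605, permutation p = 0.0457) but its highest value was then less than 1.5 times its lowest. Without ZT2 and series 2 of ZT22 (9 samples), 3 P450 genes were rhythmic, *Cyp2e1*, *Cyp2u1* and *Cyp3a13*, against 12.6% of all genes. *Cyp3a13*, a PXR target, had F24 = 0.498 with all samples (permutation p = 0.0545) and 0.891 in these 9 (permutation p = 0.0035). The median of the fitted peak over the trough of the 12 rhythmic genes was 1.09 (log2) with all samples, 0.60 without ZT2 and 0.53 without all 3 samples.

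**Figure D4:**
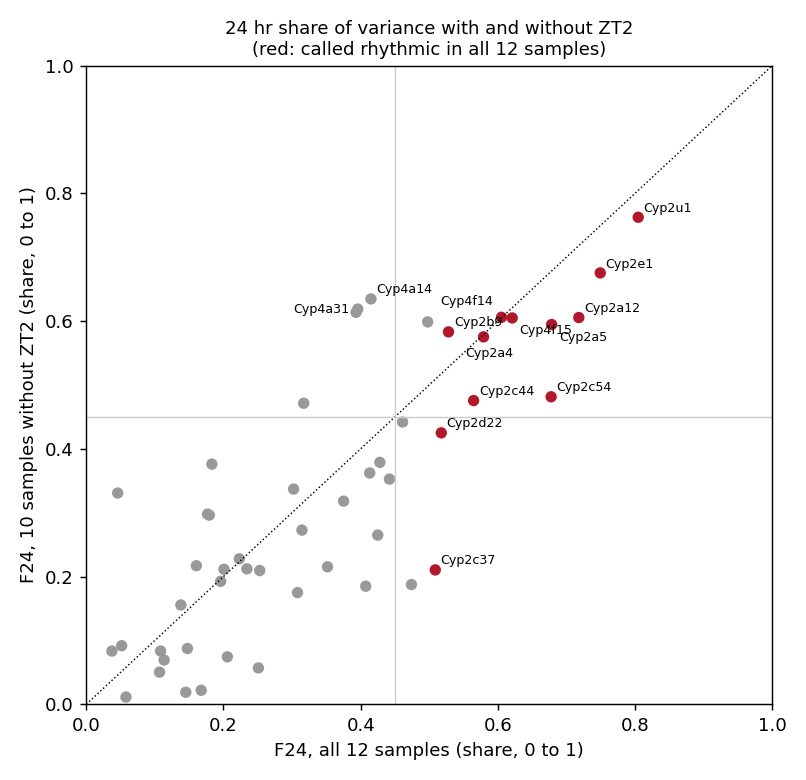
F24 of the 51 expressed P450 genes with all 12 samples (x axis) and with the 10 samples left without ZT2 (y axis), both as shares from 0 to 1. Red points are the 12 genes called with all samples, grey lines mark the minimum of 0.45, and *Cyp2c37* drops to 0.210 while *Cyp4a14* reaches 0.635.

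Within a time point the P450 genes varied more than most genes. The root mean square difference between the 2 samples of a time was 0.38 (log2) at the median of the 51 genes and 0.21 over all expressed genes, and it was above 1 in 9 P450 genes, against 1.9% of all. Among genes with a mean of at least 8 rpbp the widest was *Cyp2c39*, at 2.52, which was at 93.8 rpbp in series 1 of ZT10 and 174 rpbp in series 1 of ZT18 but at 0.08 to 11.9 rpbp in the 10 other samples. *Cyp26a1*, which breaks down retinoic acid, followed at 1.60, with 127 and 20.7 rpbp at ZT22 and 14.1 and 77.3 rpbp at ZT6. *Cyp4a14* (1.59), *Cyp2b13* (1.51) and *Cyp2a4* (1.29) came next. *Cyp26b1*, also an enzyme of retinoic acid breakdown, had a difference of 1.79 at a mean of 7.27 rpbp. *Cyp1a2*, the AhR target that oxidizes caffeine, was at 2558 rpbp in series 2 of ZT14 and at 574 to 1272 rpbp in the 11 other samples. By limma, no P450 gene differed between the series at an adjusted p below 0.05, and no gene of the 10198 did (0.0%). At an unadjusted p below 0.05 there were 1 P450 gene, *Cyp2j6*, and 4.18% of all genes. For the difference of the rhythm between series, the counts were 0 P450 genes and 0 of all genes after adjustment, and 0 and 1.97% before it.

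By function, and against 19.1% of all expressed genes, the fatty acid hydroxylases of family 4F held 2 rhythmic genes of 3 expressed, and the genes expressed around the central vein 4 of 7 (*Cyp2a5*, *Cyp2c37*, *Cyp2c54* and *Cyp2e1*). Without ZT2 the counts were 1 and 2 (15.1% of all genes), and without the 3 acute phase samples 0 and 1 (12.6%). The female-predominant list held 2 of 4 (*Cyp2a4* and *Cyp2b9*), 1 without ZT2 and 0 without the 3 samples. The male-predominant list held 1 of 4 (*Cyp2u1*) in each case. With all samples no gene was called among 1 AhR target, 6 PPARα targets, 3 epoxygenases of family 2J, 2 genes of retinoic acid breakdown, 2 of sterol oxidation, 1 of steroid hormone synthesis, 1 of vitamin D and 1 of the portal zone. Without ZT2, 2 of the 6 PPARα targets were called, *Cyp4a14* and *Cyp4a31*, and 0 without the 3 acute phase samples. *Cyp2r1*, which hydroxylates vitamin D, stayed between 25.2 and 39.7 rpbp, with both samples of ZT18 lowest. The summed level of the female-predominant genes was 8.44 to 699 rpbp, lowest in the samples of ZT2 (11.6 and 8.44 rpbp). That of the male-predominant P450 genes was 1971 to 3555 rpbp. The 4 male-predominant genes measured outside the P450 genes summed to 21829 and 41141 rpbp at ZT2 and 1151 to 25818 rpbp elsewhere. Genes of the Y chromosome were found in all samples.

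The partners and regulators of P450 enzymes were then measured, 35 genes in all, each of them expressed. Of these, 19 were rhythmic, against 19.1% of all expressed genes, and 12 strongly, against 7.89%. Without ZT2 18 were rhythmic (15.1%), and 17 without the 3 acute phase samples (12.6%). *Por*, the reductase, was at 104 and 106 rpbp at ZT2, 251 and 326 rpbp at ZT6, 524 and 434 rpbp at ZT10, 377 and 471 rpbp at ZT14, 212 and 178 rpbp at ZT18, and 106 and 125 rpbp at ZT22. The 4 samples of ZT10 and ZT14 were above the 8 others. Its peak was at 11.3 hr (F24 = 0.927, permutation p = 0.0001, the smallest that 10000 orders can give, adjusted p = 0.0084). This lay within the window that, with all samples, held the peaks of 10 of the 12 rhythmic P450 genes. The other electron donors and heme genes called were *Cyb5* (peak at 11.8 hr), *Pgrmc1*, *Fdx1* and *Alas1*, 5 of 10 with *Por*. Of the ligand-activated receptors 5 of 11 were called (*Ahr*, *Nr1i2*, *Nr1i3*, *Nr0b2* and *Esr1*), and of the liver and clock factors 9 of 14, among them *Nfil3* (F24 = 0.925, peak at 20.1 hr) and *Nr1d2* (F24 = 0.885, peak at 8.05 hr).

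The promoters of the P450 genes (RefSeq, build GRCm38.p6, from 250 bases before to 50 after the start, both strands) were searched for binding motifs of such factors. A promoter was found for 60 of the 76 genes. The E-box CACGTG of CLK:BMAL1 occurred in 2 of them, *Cyp2j6* and *Cyp4v3*, against 8.09% of all genes, and the D-box TTANGTAA of DBP, TEF and NFIL3 in 1, *Cyp2c38*, against 2.72%. The hexamer AGGTCA, which REV-ERB receptors and, in pairs, CAR, PXR and PPARα can bind, occurred in 16 of 60, against 18.1% of all genes. Direct repeats of it 1 base or 4 bases apart were in no P450 promoter, and in 0.048% and 0.015% of all genes. The STAT motif TTCNNNGAA was in 3, against 9.55%. The hexamer is given here, in capitals and with the bases around it, for 5 genes, all of them among those lowest at ZT2. The stretches of the other genes with the hexamer are not shown. Of the 16 genes that hold the hexamer, 7 were among the 23 lowest at ZT2. Both ZT2 samples were lowest in 23 of all 51 expressed P450 genes and in 9.58% of all expressed genes. The 9 others were not lowest at ZT2 or, like *Cyp3a44*, *Cyp3a57*, *Cyp11a1* and *Cyp2t4*, not expressed and so not scored. Among the 9, *Cyp2f2* and *Cyp2c70* were highest at ZT2. The 5 stretches shown lie at chr7:26173260-26173287 (+ strand), chr7:26061346-26061373 (+), chr19:39286920-39286947 (+), chr19:39347310-39347337 (+) and chr4:96664300-96664327 (−).
Cyp2b9: agcgaatgagcAGGTCAccagcagccca
Cyp2b13: agtgaatgagcAGGTCAccagcagccca
Cyp2c29: gcactctgtaaAGGTCAagggtaaatta
Cyp2c39: ttgctattgaaAGGTCAgtgatgcctga
Cyp2j5: tggaaaacagcAGGTCAaagactggggt
The hexamer begins 138 bases before the start in both *Cyp2b9* and its near copy *Cyp2b13*. These matches describe the letters in the window and are not binding sites shown by these data.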

How the data were processed

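Poly(A) RNA was sequenced in 12 samples of mouse liver. The authors mapped them to mm9 with TopHat (base calls with CASAVA 1.8, per the labels), kept those with a unique place and, without regard to strand, divided the coverage of the flattened exons by exon length. The authors scaled the deposited signal, in reads per base pair (rpbp) and thus a coverage, to 10000000 uniquely mapped sequences. Its depth per gene is a coverage and not a count, so no counting interval is given. The deposited columns also hold the authors' F24 (a fraction), phase (another score, in hr) and permutation p-value, which were not used. The columns named ZT20 were taken as ZT22.

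The signal was multiplied by 4 (to 40000000 sequences), and a gene had to pass 8 rpbp in 1 sample or more. F24, the peak time and p from 10000 random orders (seed 1) were computed, with Benjamini-Hochberg adjustment over 10198 genes. In limma, a 24 hr cosine and sine were fitted to log2(rpbp + 1), which understates changes of low genes. The series, and the rhythm by series, were tested in the same way. The scripts were tested on simulated data. Named are the rhythmic genes, the 10 of highest mean, the 5 of widest spread between samples (mean at least 8 rpbp) and examples of the lists, and others (*Cyp2c50*, *Cyp2c70*, *Cyp2b10*, *Cyp2c38*, *Cyp1a2*, *Cyp3a13*, *Cyp4a10*, *Cyp4a31*, *Cyp2j6*, *Cyp26b1*, *Nr1i3*, *Ppara*, acute phase genes) were chosen after their values were seen. The P450 genes and all lists were chosen with earlier results of these data known. Positions come from GENCODE on mm9 (74 of 76 genes matched), and promoters from RefSeq.

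Alternatives were no minimum or 1 of 16 rpbp, median-of-ratios size factors, log2 values, adjusted p, limma, time-point means, each replicate left out and the mean of each series removed. Leaving out ZT2, alone or with series 2 of ZT22, was chosen after the data were seen. Tools were R 4.3.3 with limma 3.58.1, and Python 3.11.15 with scipy 1.17.1, numpy 2.4.6, matplotlib 3.10.9 and pandas 2.3.3.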

Additional observations from a re-analysis of the deposited data

How the results depend on the processing

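With 2 samples a time, single genes rest on few samples, and both samples of ZT2 carry acute phase genes. The number of rhythmic P450 genes, 12, was 11 to 15 with another minimum, size factors, log2 values or time-point means. It was 3 with the adjusted permutation p, 5 with limma, 8 without ZT2 and 3 without ZT2 and series 2 of ZT22, and 1 without either replicate. Strongly rhythmic P450 genes numbered 5, 3 with the adjusted p, 3 with time-point means, 2 without ZT2 and series 2 of ZT22, and 0 to 1 without a replicate. All rhythmic genes numbered 1948, 508 with the adjusted p, 828 with limma, 1290 without the 3 samples and 286 to 369 without a replicate. The partners and regulators numbered 19, 9 with the adjusted p, 11 with limma and 2 to 4 without a replicate. With 6 values the smallest p of 720 orders is 0.0167, and fewer values test each gene. The median size of the rhythm (1.09, log2) was 0.60 without ZT2 and 0.53 without the 3 samples, and 0.95 to 1.18 without a replicate. No rhythmic gene's peak turned round in any of these settings. Size factors moved a sample by −0.06 to 0.04 (log2). For single genes, the cause of a lost call was not tested.

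The replicate numbers did not pair the samples, since over 15 pairs of times the correlation of their deviations was −0.15 to 0.21 (2 above 0.1). With the replicate block, 13 P450 genes were rhythmic, 5 strongly, 19 partners and regulators, and 2120 of all genes, and the size of the rhythm was 1.09. At an adjusted p below 0.05 by limma, no P450 gene differed between series, or in its rhythm between series, under any of the settings run.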
